A study of Drosophila melanogaster with 2 samples.

Results

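Cytochrome P450 genes of the fruit fly Drosophila melanogaster were followed on 2 two-colour microarrays that compared larvae carrying the B52 transgene with control larvae. The genes were taken by symbol: every probe annotated with a single gene whose current symbol begins with Cyp and a digit. This gave 82 genes on 83 probes, out of 12236 named genes on 15744 spots. Of the 82 genes, 80 are cytochrome P450 genes, on 81 probes. The other 2, Cyp1 and Cyp40, carry the same letters but encode cyclophilins, peptidyl-prolyl isomerases that are unrelated to P450 enzymes, so they were kept apart. A value on both arrays was present for 64 of the 80 P450 genes, and these carry the comparisons below.

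Cytochrome P450 enzymes are haem proteins that insert an oxygen atom into small lipophilic molecules. In insects they make and break down hormones such as ecdysone, build the hydrocarbons of the cuticle, and detoxify plant compounds and insecticides in the midgut, Malpighian tubules and fat body. Symbols follow the protein sequence: a number for the family, a letter for the subfamily and a number for the gene. Families are grouped into the CYP2, CYP3, CYP4 and mitochondrial clans, of which CYP3 and CYP4 hold most of the genes linked to detoxification.

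Each array carried RNA of larvae labelled GMR X GFP-NLS, the control, and of larvae labelled GMR X GFP-B52. B52 is a splicing factor of the SR protein family. Both crosses thus carried GMR, a name that fly genetics uses for an eye promoter, and both carried a green fluorescent protein. It was directed to the nucleus in the control and fused to B52 in the other cross. The labels give no larval age, sex or dissected tissue, and a ratio of 2 channels holds no expression level, so the tissue could not be checked against its markers. If whole larvae were used, fewer cells of a type and less RNA per cell cannot be told apart. The study asked whether more B52 protein changes gene expression at large. The Cy5 dye marked the B52 RNA on replicate 1 and the control RNA on replicate 2. The molecule label was cytoplasmic RNA for the control channel of replicate 1 and polyA RNA for the other channels. Replicate 1 had a value at 13919 spots and replicate 2 at 14026, and precision is limited by the number of arrays. Nothing in the labels says that separate extracts were used for the arrays. The p-values then reflect array-to-array spread alone, which may be technical.

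The deposited values are log ratios whose base and direction are not stated. They were therefore read in 2 ways. In the channel reading, each value is channel 2 over channel 1, which is B52 over control on both arrays. The dye reading takes each value as Cy5 over Cy3, so that replicate 2 needs its sign reversed to become B52 over control. The readings coincide on replicate 1 and are opposite on replicate 2. A gene with the same deposited sign on both arrays thus has a shared direction in the channel reading. A gene with opposite signs has one in the dye reading. If the other reading holds, such a gene follows the dye on both arrays and not the larvae. If the numerator was the control or Cy3, all signs turn. In the reading named, a positive mean stands for a higher signal in B52 larvae. The probes of B52 itself, averaged over 5 probes, stood at -0.136 on replicate 1 and 0.042 on replicate 2. The channel-reading mean of B52 was -0.0468 ± 0.126 (SD, n = 2 arrays), with a limma adjusted p of 0.962. The dye-reading mean was -0.0892 ± 0.0662 (limma adjusted p = 0.999), so neither reading, as defined here, showed more B52 RNA in the B52 larvae. Both means would lie above 0 if all signs turned.

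No P450 gene passed limma's test at an adjusted p of 0.05 in either reading. The count was 0 of 64 in each reading, and over all 11883 rows tested the share called was 0% in each. In the channel reading 8 of the 64 genes had an unadjusted p under 0.05 in limma, 12.5% of them, against 6.36% of the 10584 named genes measured on both arrays. The dye reading had 5 such genes, or 7.81%, against 5.22% of named genes. The lowest adjusted p of a P450 gene in limma was 0.653 (channel reading) and 0.434 (dye reading). For the median P450 gene the 95% interval of the mean, before any adjustment for multiple tests, reached 0.226 to each side (channel reading) and 0.237 (dye reading). After adjustment the test asks for more than that: Cyp311a1, with a channel-reading mean of 0.576, did not pass it.

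The P450 genes lay mostly above 0 on replicate 1 and on both sides of it on replicate 2. On replicate 1, 46 of the 64 genes were above 0, or 71.9%, against 50% of named genes, and their median log ratio was 0.0895 against 0.001. On replicate 2, 33 were above 0, or 51.6%, against 53.8% of named genes, and their median was 0.009 against 0.014. Between the lower and upper quartile the P450 genes ran from -0.006 to 0.181 on replicate 1 and from -0.102 to 0.131 on replicate 2. The count on replicate 1 stayed at 46 when sub-grid medians of the printed layout were removed and when arrays were centred. Centring moved replicate 1 little, since its median over the rows tested was -0.003. On replicate 2 the count was 33, and 34 and 30 under those steps. Scaling keeps every sign, so it could not change either count. Replicate 1 is also the array whose channels differ in their molecule label, and the part of that difference in the high share was not tested.

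**Figure D1:**
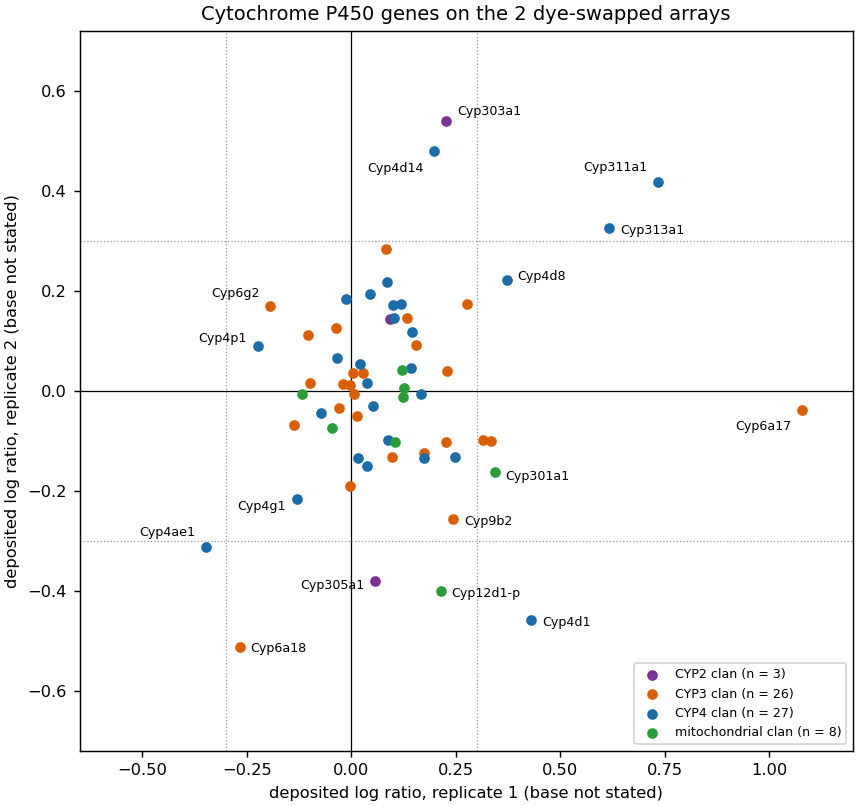
Deposited log ratio (base not stated) of the 64 P450 genes on replicate 1 (horizontal axis) and replicate 2 (vertical axis), coloured by clan, with dotted lines at a size of 0.30. More points lie right of 0 (46) than left of it (18), while above and below 0 they number 33 and 31.

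Both readings share replicate 1, so its high share of genes above 0 enters each of them. In the channel reading 24 P450 genes were higher on both arrays, or 37.5%, against 28.1% of named genes, and 9 were lower on both, or 14.1%, against 24.3%. In the dye reading, 22 were higher on both, or 34.4%, against 21.9%, and 9 were lower on both, or 14.1%, against 25.6%. The readings cannot both hold, and each gave more P450 genes higher than lower. The median P450 gene had 0.0292 ± 0.0569 (SD of the 2 array medians) in the channel reading, or 1.07-fold on a log10 and 1.02-fold on a log2 scale, against a median of 0.0085 over named genes. For the dye reading this median was 0.0315 ± 0.0697, or 1.08-fold and 1.02-fold, against -0.0075. Each median was smaller than the spread between the arrays. Across the 64 genes the values of the arrays were weakly related, with Pearson's r of 0.197 and Spearman's rho of 0.084 (0.015 and 0.063 across the 10584 named genes). These are descriptions across genes that share the same RNA and the same slides.

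**Figure D2:**
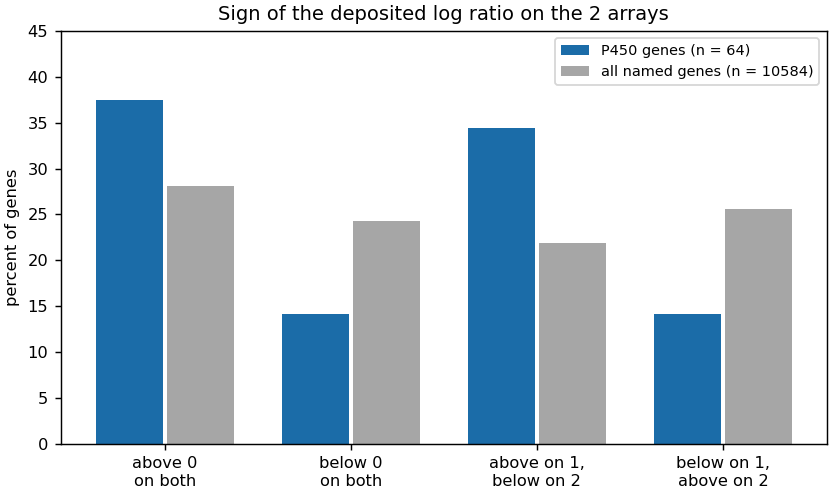
Percent of genes (vertical axis) by the sign of the deposited log ratio on replicates 1 and 2, for the 64 P450 genes (blue) and the 10584 named genes (grey). The P450 genes exceed the named genes in both classes that are above 0 on replicate 1, at 37.5% and 34.4%.

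The CYP4 clan had 27 of the 64 measured genes and 5 of the 8 with an unadjusted p under 0.05 in limma in the channel reading. Among all named genes 6.36% had such a p, and Cyp4ae1, 1 of the 5, was lower. The clan's medians were 0.087 on replicate 1 and 0.054 on replicate 2. In the channel reading 13 of its genes were higher on both arrays, or 48.1%, against 28.1% of named genes. Lower on both were 3, or 11.1%, against 24.3%. The dye reading had 8 higher on both, or 29.6%, against 21.9%, and 3 lower, or 11.1%, against 25.6%. Within the clan the Cyp4 family of 19 genes had medians of 0.086 and 0.015, and the Cyp313 family of 5 genes had 0.101 and 0.054. Of the Cyp313 genes, 4 were above 0 on both arrays and Cyp313a5 was below 0 on both, at -0.072 and -0.045.

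Cyp311a1 had the largest channel-reading mean of all P450 genes. Its log ratio was 0.734 on replicate 1 and 0.418 on replicate 2, both above the upper quartile of P450 genes. The mean was 0.576 ± 0.223 (SD, n = 2 arrays; limma adjusted p = 0.653), or 3.77-fold on a log10 and 1.49-fold on a log2 scale. Cyp313a1 was at 0.617 and 0.326, with a mean of 0.472 ± 0.206 and the same adjusted p in limma. Of the other members of its subfamily, Cyp313a2, at 0.020 and 0.054, and Cyp313a4, at 0.101 and 0.172, were above 0 by less, and Cyp313a5 was below 0 on both arrays.

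Cyp4d14 was at 0.199 on replicate 1 and 0.481 on replicate 2, and Cyp4d8 at 0.372 and 0.223. Their channel-reading means were 0.34 ± 0.199 and 0.298 ± 0.105 (SD, n = 2 arrays). Cyp4ae1 went the other way. It was at -0.347 and -0.312, close to each other, with a mean of -0.33 ± 0.0247 (limma adjusted p = 0.663), which is 2.14-fold lower if log10 and 1.26-fold if log2. Cyp4ae1 and Cyp4d14 lie in 1 run of neighbouring genes with Cyp4d2, which was at 0.257 on replicate 1 and had no value on replicate 2. Signs thus differed between genes of the run on replicate 1.

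Cyp4g1, which in oenocytes cleaves aldehydes to the long hydrocarbons that waterproof the cuticle, was below 0 on both arrays. Its values were -0.131 and -0.217, and the channel-reading mean was -0.174 ± 0.0608 (SD, n = 2 arrays), with a limma adjusted p of 0.765. The other gene of its subfamily, Cyp4g15, was near 0 at 0.038 and 0.015, and below 0 on both arrays once sub-grid medians were removed, at -0.019 and -0.063. Cyp4d21, known for its sex-specific expression and a part in male mating, was at 0.102 and 0.146. Neither of these passed the test, and the subfamilies Cyp4ac, Cyp4e and Cyp4p held genes of both signs.

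Cyp4d1 had the lowest p of the P450 genes in the dye reading. It was the only P450 gene with more than 1 probe. Its first probe was at 0.231 on replicate 1 and -0.608 on replicate 2, and its second at 0.630 and -0.310. The probes thus had the same signs as each other on each array but differed in size. Within each probe the sizes on the arrays lay further apart than in the average, so the small SD below is one of averages. Averaged, the gene was at 0.430 and -0.459, and the dye-reading mean was 0.445 ± 0.0202 (SD, n = 2 arrays; limma adjusted p = 0.434), 2.78-fold if log10 and 1.36-fold if log2. Read by channel, the same values gave -0.0143 ± 0.629. Cyp318a1, which adjoins Cyp311a1, was at 0.175 and -0.135, with a dye-reading mean of 0.155 ± 0.0283, and at 0.235 and -0.018 once sub-grid medians were removed. Among genes lower in the dye reading were Cyp4p1, at -0.224 and 0.090, and Cyp312a1, at -0.034 and 0.066. With sub-grid medians removed, Cyp4p1 was below 0 on replicate 2 too, at -0.016 and Cyp312a1 lay above 0 on both arrays.

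**Figure D3:**
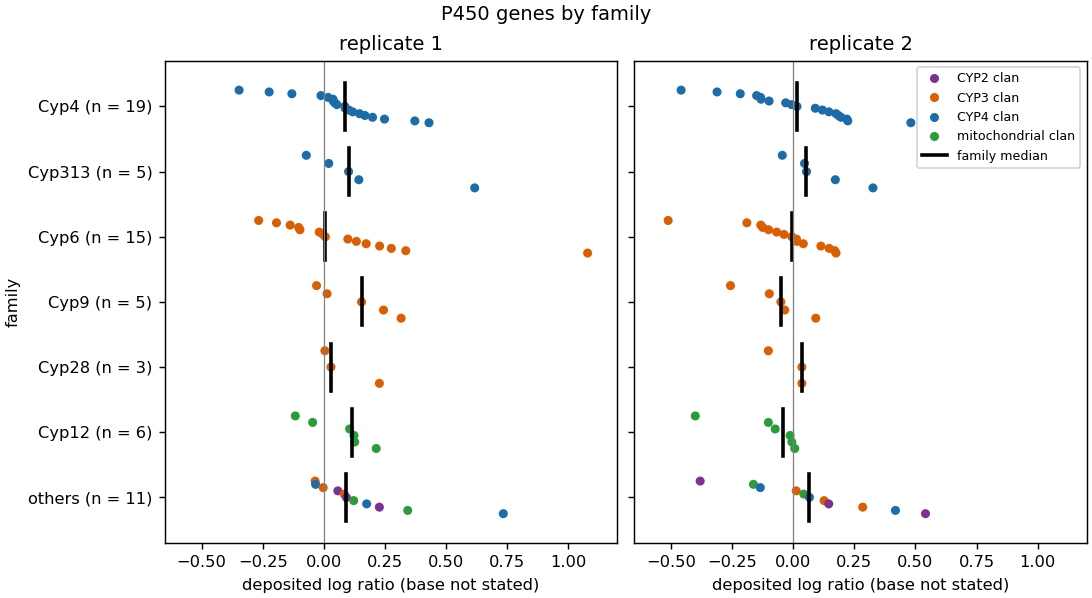
Deposited log ratio (base not stated, horizontal axis) of each P450 gene on replicate 1 (left) and replicate 2 (right), by family, with a black bar at the family median and points coloured by clan. Cyp4, Cyp9 and Cyp12 medians lie above 0 on replicate 1, at 0.086, 0.154 and 0.114, and at 0.015, -0.051 and -0.0435 on replicate 2.

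The CYP3 clan, with 26 measured genes, had medians close to 0 on both arrays, 0.021 and 0.003. Of its genes, 7 (26.9%) were higher and 4 (15.4%) lower on both arrays in the channel reading, against 28.1% and 24.3% of named genes. In the dye reading 9 (34.6%) were higher and 6 (23.1%) lower on both, against 21.9% and 25.6%. The Cyp6 family of 15 genes had medians of 0.006 and -0.006, with 8 genes above 0 on replicate 1 and 7 on replicate 2. The Cyp9 family of 5 genes had medians of 0.154 and -0.051, and the Cyp28 family of 3 genes had 0.029 and 0.035.

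Cyp6a17, known for a part in temperature preference, had the highest value of any P450 gene on an array, 1.079 on replicate 1, and was at -0.038 on replicate 2. The channel-reading mean was 0.52 ± 0.79 (SD, n = 2 arrays) with a limma adjusted p of 0.784, and the dye-reading mean 0.558 ± 0.736 with a limma adjusted p of 0.884. Both means rest on replicate 1 alone. Cyp6a18 was at -0.267 and -0.512, the lowest P450 value of replicate 2, and had a channel-reading mean of -0.389 ± 0.173 (limma adjusted p = 0.675). Cyp6t1, at 0.276 and 0.175, had a channel-reading mean of 0.226 ± 0.0714.

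Cyp6g1, which confers resistance to DDT and neonicotinoids when overexpressed, was at 0.098 on replicate 1 and -0.133 on replicate 2. Its channel-reading mean was -0.0175 ± 0.163 and its dye-reading mean 0.116 ± 0.0247 (SD, n = 2 arrays), with limma adjusted p of 0.989 and 0.999. Cyp6g2, its neighbour, had the opposite signs, -0.194 and 0.170, with a dye-reading mean of -0.182 ± 0.017, the lowest of the P450 genes. Once sub-grid medians were removed, Cyp6g2 was at -0.250 and 0.042, less alike in size, with a dye-reading mean of -0.146. Cyp6t3, the next gene of the run, was at 0.335 and -0.101. Cyp6a2, a phenobarbital-inducible gene, was at 0.173 and -0.125. Cyp28d1 was at 0.004 and 0.035 and Cyp9f2 at -0.030 and -0.035, the latter nearly the same on both arrays. Cyp9b2 was at 0.244 and -0.257, with a dye-reading mean of 0.251 ± 0.0092 (limma adjusted p = 0.835), while its neighbour Cyp9b1 was above 0 on both, at 0.154 and 0.092. Cyp6d5 was at -0.103 and 0.113, with a dye-reading mean of -0.108 ± 0.0071. Cyp309a1, at -0.036 and 0.126, had a dye-reading mean of -0.081 ± 0.0636. Cyp6u1, at -0.138 and -0.068, turned to 0.018 on replicate 2 once sub-grid medians were removed.

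Among the 64 genes, the mitochondrial clan had 8, with medians of 0.122 on replicate 1 and -0.0435 on replicate 2. With the dye reading, 4 of these 8 (50%) were higher on both arrays and 0 lower on both, against 21.9% and 25.6% of named genes. In the channel reading 2 were higher and 2 lower, 25% each, against 28.1% and 24.3%. P450 genes without a Cyp symbol were left out of all clan counts and are given further below. Cyp12d1-p, a gene induced by caffeine and phenobarbital, was at 0.214 and -0.401, with a dye-reading mean of 0.307 ± 0.132 (SD, n = 2 arrays; limma adjusted p = 0.737) and a channel-reading mean of -0.0935 ± 0.435. It has a near-identical neighbouring copy, Cyp12d1-d, without a probe of its own here, so the signal of this probe may come from either copy. Cyp301a1, needed for the adult cuticle, was at 0.343 and -0.163, with a dye-reading mean of 0.253 ± 0.127 (limma adjusted p = 0.882). Cyp12a4, linked to lufenuron resistance, was at -0.046 and -0.074, and at 0.019 and -0.019 once sub-grid medians were removed.

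The CYP2 clan had 3 of the 64 genes, again counted by Cyp symbol only. Cyp303a1, needed for the development of sensory bristles, was at 0.227 on replicate 1 and 0.541 on replicate 2, the highest P450 value of that array. Its channel-reading mean was 0.384 ± 0.222 (SD, n = 2 arrays; limma adjusted p = 0.681), 2.42-fold if log10 and 1.30-fold if log2. Cyp18a1, which inactivates the moulting hormone 20-hydroxyecdysone, was at 0.092 and 0.145, with a channel-reading mean of 0.118 ± 0.0375 (limma adjusted p = 0.845). Cyp305a1 was near 0 on replicate 1, at 0.057, and at -0.381 on replicate 2.

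A rule of size without a test was applied beside limma: the same sign and a log ratio of at least 0.30 on each array, or 2-fold for log10 values. It was passed in the channel reading by 2 P450 genes that were higher, Cyp311a1 and Cyp313a1, or 3.12% of the 64, against 0.728% of named genes. It was passed by 1 that was lower, Cyp4ae1, or 1.56%, against 0.425%. For the dye reading the counts were 1 higher gene, Cyp4d1, or 1.56%, against 1.13% of named genes, and 0 lower genes, against 0.189%. Cyp4d1 passed as the average of its probes, of which the first, at 0.231 on replicate 1, was under the limit. Just inside this limit was Cyp4ae1, whose smaller value was 0.312 in size, and just outside it was Cyp6a18 with 0.267. With sub-grid medians removed Cyp311a1 stood at 0.711 and 0.294 and Cyp313a1 at 0.561 and 0.198, so the channel reading had 0 higher genes and 1 lower gene past the rule, and with arrays scaled to the same spread it had 2 and 0.

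**Figure D4:**
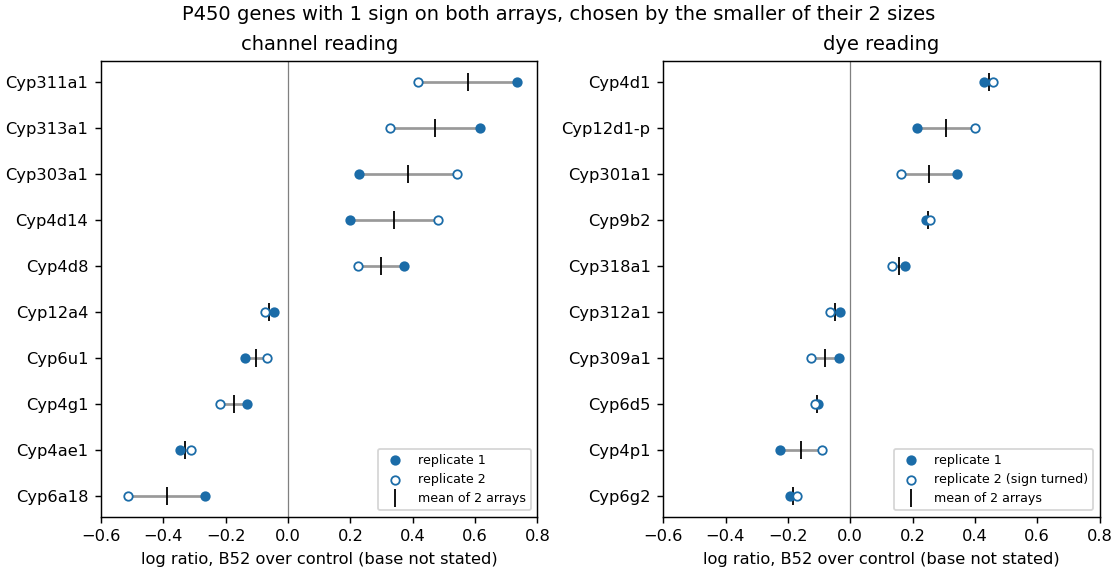
Log ratio of B52 over control (base not stated, horizontal axis) of 10 P450 genes with 1 sign on both arrays, in the channel reading (left) and the dye reading (right): 5 higher and 5 lower, those whose smaller value was largest in size. Filled points are replicate 1, open points replicate 2, and the tick is their mean: Cyp311a1, with a mean of 0.576, leads the left panel and Cyp4d1, with 0.445, the right panel, from which Cyp6a17 is absent because its replicate 2 value is near 0.

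Signs of neighbouring P450 genes were compared run by run. By gene order in RefSeq, 43 genes lay in 15 runs in which each P450 gene adjoined the next, and 12 runs had at least 2 genes measured on both arrays. All measured genes had the same deposited sign on replicate 1 in 5 of the 12 runs and on replicate 2 in 2 of them. Runs of other genes were not counted, so these counts have no share beside them and are a description only. In 1 run, Cyp28d1 and Cyp28d2, the signs agreed on both arrays. That pair was close to 0 throughout, Cyp28d2 at 0.029 and 0.035. The longest run, of 9 genes with most of the Cyp6a subfamily, had 3 genes measured on both arrays. They were Cyp6a17, Cyp6a9 at 0.228 and 0.041, and Cyp317a1 at 0.083 and 0.284.

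The remaining 16 P450 genes lacked a value on at least 1 array, so their direction could not be read across the swap. Of the 81 P450 probes 19.8% lacked a value on an array, against 14.8% of all probes with 1 symbol. Values were missing on both arrays for 6 genes: Cyp309a2, Cyp313a3, Cyp316a1, Cyp6a22, Cyp6a23 and Cyp6w1. On replicate 1 alone, 6 genes had a value, from -0.304 for Cyp6a19 to 0.270 for Cyp4p3. Among them Cyp6a20, linked to male aggression, was at 0.133. On replicate 2 alone, 4 genes had a value, among them Cyp6a8, a phenobarbital-inducible gene, at 0.154 and Cyp28c1 at 0.538.

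P450 genes whose symbol does not begin with Cyp, and genes that work with them, were read from lists of known members. Ecdysone is made by the Halloween genes, of which spo, phtm, dib, sad and shd encode P450 enzymes. Of the list of 12 genes of ecdysone synthesis, 10 were measured, 5 of them above 0 on each array, and 0 passed limma's test at an adjusted p of 0.05 in either reading. The gene spo, which acts early in the pathway in the embryo and ovary, was at 0.651 on replicate 1 and -0.175 on replicate 2. The gene dib was at -0.036 and -0.056, sad at -0.143 and 0.124, phtm at 0.075 and 0.146, and shd, which converts ecdysone to its active form, at 0.043 and 0.023. The last 4 genes lay nearer 0 on each array than spo did. Among the other genes of the list, the short-chain dehydrogenase gene sro was at 0.020 and -0.071, and the cholesterol transporter gene Npc1a at -0.105 and 0.184. The transcription factor genes mld, ouib and woc were at -0.041 and -0.176, at 0.157 and -0.025, and at -0.005 and 0.313.

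P450 enzymes draw electrons from partner proteins, of which 4 of 6 listed genes were measured. Cyt-b5, a cytochrome that passes electrons to P450 enzymes of the endoplasmic reticulum, was at 0.046 and -0.019. Cyt-b5-r, at 0.127 and 0.229, is on the list too, but encodes a cytochrome b5-related protein and not a reductase, so it is no known electron donor. The mitochondrial ferredoxin genes Fdx1 and Fdx2 were at -0.171 and 0.047 and at 0.081 and 0.114. These values lay in the range of the P450 genes, and 0 of the listed genes passed limma's test in either reading.

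Of 8 listed regulators of the response to foreign compounds, 7 were measured and 0 passed limma's test in either reading. The gene cnc, which encodes the fly Nrf2 factor, was at 0.480 and -0.196, and its inhibitor Keap1 at -0.115 and 0.090. The gene of its partner maf-S was at -0.160 and -0.548. The nuclear receptor gene Hr96, a regulator of the phenobarbital response, was at 0.053 and 0.091. The gene ss, the fly homologue of the aryl hydrocarbon receptor, was at 0.073 and 0.263, its partner tgo at -0.050 and -0.028, and the receptor gene ERR at 0.276 and 0.168. Signs among these regulators were thus mixed.

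The enzymes that act after P450 enzymes, glutathione transferases and UDP-glycosyltransferases, were set beside them. The 35 measured Gst genes had medians of -0.006 on replicate 1 and 0.015 on replicate 2. Above 0 were 16 (45.7%) on replicate 1 and 19 (54.3%) on replicate 2, against 50% and 53.8% of named genes. The 27 measured Ugt genes had medians of 0.129 and 0.067, with 19 (70.4%) and 20 (74.1%) above 0. On replicate 1 the Ugt share was close to the 71.9% of P450 genes, so a high share there was not particular to P450 genes. The P450 median of 0.0895 on replicate 1 lay between those of the Gst and Ugt genes, and that of 0.009 on replicate 2 lay below both. In limma 0 genes of either group passed in either reading.

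Markers of larval tissues that use P450 enzymes were read on the same arrays. On replicate 1, 50% of named genes were above 0. The number of marker genes above 0 there was 6 of 12 for the midgut (medians of -0.0095 on replicate 1 and 0.024 on replicate 2). It was 6 of 9 for Malpighian tubules (0.053 and -0.108) and 3 of 5 for the fat body (0.141 and 0.064). It was 5 of 8 for oenocytes (0.0715 and -0.0447), a list that includes Cyp4g1, and 3 of 6 for the prothoracic gland (-0.008 and 0.0495), whose measured genes are all on the ecdysone list. For trachea and epidermis it was 4 of 5 (0.0527 and -0.0597). These lists were short, and their part in the high share of P450 genes above 0 on replicate 1 was not tested. Of the cyclophilin genes, Cyp1 was above 0 on both arrays, at 0.089 and 0.136, and Cyp40 below 0 on both, at -0.052 and -0.064.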

How the data were processed

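Per the labels, each of 2 arrays held control RNA in channel 1 and B52 RNA in channel 2, with the dyes swapped. The authors deposited 1 log ratio (unit other: base and direction unstated) per spot. The sources used here do not give background correction, normalisation or image analysis. Medians over all spots were -0.006 and 0.010, and 5 spots with the code -10000 were treated as missing. Without intensities, dim spots could not be filtered. The platform annotation named 13147 probes by 1 symbol, 99 by several and 2498 by none; 12519 were updated through RefSeq and 628 kept as annotated. In all, 960 control spots (40 positions in each of 24 sub-grids) were left out.

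Probes of a gene with values on both arrays were averaged, and 11883 rows were tested against 0 with lmFit and eBayes (limma 3.58.1, R 4.3.3; 1 residual degree of freedom) with Benjamini-Hochberg adjustment. The procedure was tested on simulated data, in which it called few or no differences as small as the size rule's limit. Of simulated differences of size 1 it called 83.4% (channel reading) and 98% (dye reading). Summaries used Python 3.11.15 and pandas 2.3.3. Errors (±) are SDs over the 2 arrays. Named genes were the 5 highest and 5 lowest per reading (same sign on both arrays, ranked by the smaller size of the 2 values and not by the mean), the extremes of subfamilies with 4 or more measured genes, those past the size rule and 15 of known role; further members were named after their values were seen. Members and lists were chosen with earlier results of these data known. RefSeq was used for names and gene order only, since no build is named for the array.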

Additional observations from a re-analysis of the deposited data

How the results depend on the processing

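No P450 gene passed limma's adjusted test in either reading with sub-grid medians removed, arrays centred or scaled, single probes or robust eBayes. Probe medians gave 0 too but could not change a P450 value, since only Cyp4d1 had more than 1 probe and it had 2. Counting the 2 cyclophilins also gave 0 and left each P450 p-value as it was. At an adjusted p of 0.1 no P450 gene passed either. At an unadjusted p under 0.05 there were 8 (channel reading) and 5 (dye reading). An ordinary test without eBayes called 1 in the dye reading, Cyp6a13, whose values of 0.006 and -0.006 leave a variance of 0. It called 0 in the channel reading. There 3 of the 64 genes had an unadjusted p under 0.05 by this test, a smaller share than the 5.91% of named genes. They were Cyp4ae1, Cyp6d4 and Cyp9f2, of which only Cyp4ae1 was among limma's 8. With values read by dye the ordinary test had 7 such genes, a larger share than the 4.91% of named genes. Of these, Cyp4d1 and Cyp9b2 were among limma's 5. The size rule gave 3 genes (channel reading) and 1 (dye reading). With sub-grid medians removed the channel reading had 1. At a size of 1, which is 2-fold if log2, there were 0 in both readings, and at 0.2 there were 6 and 3. In the channel reading these 6 were 4 higher (6.25%, against 2.44% of named genes) and 2 lower (3.12%, against 1.65%), and in the dye reading 3 higher (4.69%, against 2.84%) and 0 lower (against 1.06%). Leaving out either array gave 9 in each reading, since 1 array then decides. Among all P450 genes with a value on replicate 1, 11.4% were past the limit above 0 and 2.86% below 0. Named genes had 5.8% and 3.1% there. On replicate 2 it was 7.35% and 7.35% of P450 genes, against 5.65% and 4.67% of named genes. The P450 median of the channel reading was 0.0895 without replicate 2 and 0.009 without replicate 1, and of the dye reading 0.0895 and -0.009, so the sign of the dye-reading median rests on replicate 1. Of 384 single-gene means under sub-grid removal, centring and scaling, 351 moved by less than the SD of the arrays and 23 changed sign. Centring moved every mean of a reading by the same amount. The SD is also large where the arrays disagree, as for Cyp4d1 in the channel reading (0.629). The count of 351 thus says little about stability. No paired analysis was possible because the arrays form 1 group. Depth is unknown without intensities.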
